A study of Rattus norvegicus with 6 samples.

Results

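Collagen alpha, Lox and LOXRP were the collagen and lysyl oxidase features of a spotted rat array, 3 of the 311 named or numbered features measured on it. They were chosen by their exact names in the array files, and not by any threshold on measured values, although earlier results of these data were known when they were picked. The files do not say which collagen chain the Collagen alpha probe reports, nor which lysyl oxidase relative LOXRP is, so both are called here by the name on the array.

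Collagens are secreted triple-helical proteins that give connective tissue and basement membranes their tensile strength. Lysyl oxidase, the enzyme encoded by Lox, is secreted as a precursor and oxidises lysine side chains of collagen and elastin, which then form the covalent crosslinks that make the fibres stiff and insoluble. Lox was also isolated as a gene whose loss accompanies transformation by RAS, and lowered collagen and Lox RNA are long-known features of RAS-transformed rodent cells.

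RNA was compared on 6 arrays with 2 colours. Each array held cDNA of 1 sample in one dye and cDNA of untreated ROSE199 cells, a line derived from rat ovarian surface epithelium, in the other. The study asked how HMGA2, a chromatin protein that binds AT-rich DNA, contributes to the gene programme of K-RAS-transformed cells. One pair of groups was ROSE199 stably transfected with an HMGA2 expression plasmid (HMGA2, 2 arrays), set against ROSE199 stably transfected with the empty pEF6 vector (empty vector, 1 array), both under 10 µg/ml blasticidin. The other pair was ROSEA25 transfected with siRNA duplexes against HMGA2 (siHMGA2, 2 arrays), set against ROSEA25 transfected with siRNA against EGFP (siEGFP, 1 array). The siRNA was used at 0.2 µM in 2 doses 24 h apart and cells were taken at 48 h. ROSEA25 was read as ROSE199 transformed by K-RAS, because the siRNA protocol names ROSE-RAS cells. All cells grew in 10% serum. The labels do not say whether the stable transfectants were clones or pools.

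The 2 arrays of HMGA2 and of siHMGA2 carried the sample in Cy5 (replicate 1) and in Cy3 (replicate 2), and the empty vector and siEGFP arrays carried it in Cy5. Nothing in the labels gives separate cultures, so each group was treated as 1 RNA sample, no test between groups was made, and errors cover labelling and hybridisation only. The feature for HMGA2 itself, spotted under its older name HMGI-C, read 3.70 and 3.33 on the HMGA2 arrays against 0.26 on the empty vector array, and 1.20 and 1.59 on the siHMGA2 arrays against 2.40 on the siEGFP array, as log2 ratios over ROSE199. K-ras read 4.82 and 4.60 on the siHMGA2 arrays and 4.25 on the siEGFP array. All 5 ovarian surface epithelium markers on the array were above blank spots in every group and in ROSE199. Of 3 mesenchymal markers (PDGF receptor, SM22 and Thy-1), 3 were above blank in HMGA2, empty vector, siHMGA2 and ROSE199 and 1 in siEGFP. A group or ROSE199 counted as above blank where at least 1 of its arrays was. In the ROSE199 channel, PDGF receptor was above blank on 4 of 6 arrays and Thy-1 on 5 of 6. Leukocyte and endothelial markers were not on the array.

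All 3 features were detected on every array. Each was above the blank limit (mean plus 3 SD of blank spots) in 12 of 12 channels, at 3.52 to 558 times that limit for Collagen alpha, 4.14 to 347 times for Lox and 2.59 to 28.3 times for LOXRP. No spot of theirs was marked poor by the quantification software. The net signal of Collagen alpha averaged 3068 and 3645 units in the HMGA2 channels, 2972 in the empty vector channel, 638 and 592 in the siHMGA2 channels and 858 in the siEGFP channel. The ROSE199 channels read 20904 and 21787 units on the HMGA2 arrays, 7266 on the empty vector array, 6451 and 8487 on the siHMGA2 arrays and 16169 on the siEGFP array, so the ROSE199 signal was the brighter on every array. Absolute signals varied between slides, and groups were therefore compared through the ratio to ROSE199 on the same slide.

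**Figure D1:**
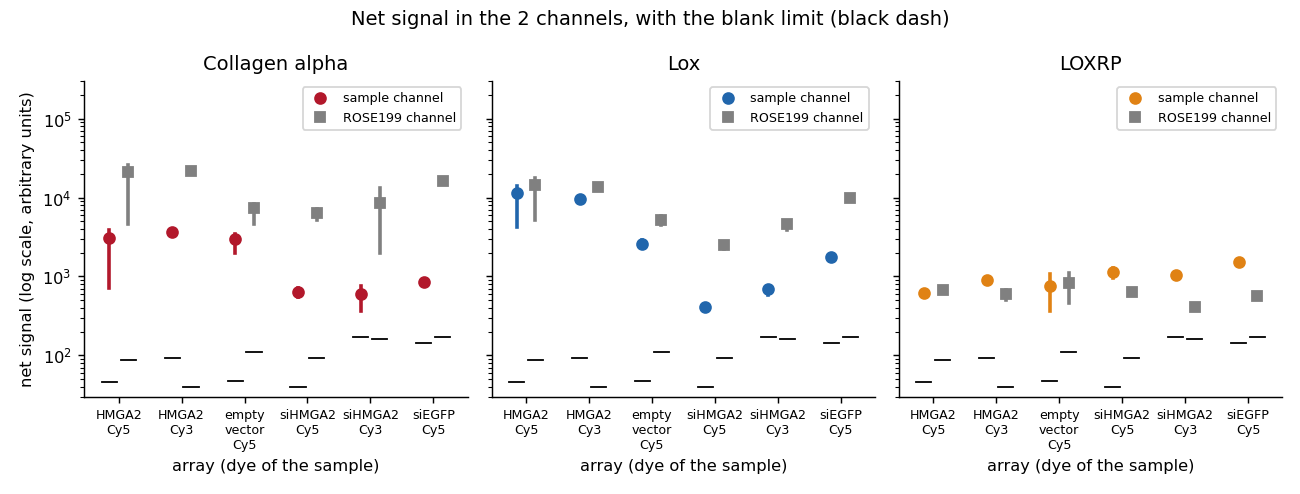
Net signal (log axis, arbitrary units) of the 3 features on each array, in the sample channel (coloured circles) and the ROSE199 channel (grey squares), as the mean over spots with a line from the lowest to the highest spot. Black dashes mark the blank limit of that channel; every mean lies above it, and LOXRP is the only feature whose sample channel exceeds ROSE199 in both siRNA groups.

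Collagen alpha was lower than in ROSE199 on all 6 arrays. Its 5 spots averaged a log2 ratio of -2.95 (spot SD 0.14) and -2.78 (0.021) on the HMGA2 arrays, against -1.40 (0.049) on the empty vector array. They averaged -3.22 (0.094) and -3.47 (0.85) on the siHMGA2 arrays, against -4.68 (0.049) on the siEGFP array. Both HMGA2 arrays read lower than the empty vector array, and both siHMGA2 arrays read higher than the siEGFP array. With 2 arrays of 1 assumed RNA sample against 1 array, this does not measure variation between cultures. How many of all features separate in this way was not counted. Collagen alpha had the lowest ratio of all 311 features on 2 arrays, empty vector and HMGA2 replicate 1, and was among the 3 lowest on the other 4 arrays.

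Lox, the crosslinking enzyme, was likewise below ROSE199 on all 6 arrays. Its 4 spots averaged -0.57 (spot SD 0.087) and -0.75 (0.037) on the HMGA2 arrays and -1.09 (0.028) on the empty vector array. They averaged -2.25 (0.063) and -2.68 (0.096) on the siHMGA2 arrays and -2.97 (0.038) on the siEGFP array. Lox was thus highest on the HMGA2 arrays and lowest on the siEGFP array. From the lowest, Lox ranked 30 and 20 of 311 on the HMGA2 arrays, 2 on the empty vector array, 5 and 11 on the siHMGA2 arrays and 15 on the siEGFP array.

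LOXRP ran the other way. Its 4 spots averaged 0.29 and 0.24 on the HMGA2 arrays and 0.01 on the empty vector array. They averaged 1.14 and 1.12 on the siHMGA2 arrays and 1.48 on the siEGFP array. LOXRP was close to ROSE199 in the vector lines and above it in all 3 ROSEA25 arrays. Its ranks from the lowest were 239, 223, 152, 291, 290 and 291 in the order HMGA2 replicates 1 and 2, empty vector, siHMGA2 replicates 1 and 2, siEGFP.

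**Figure D2:**
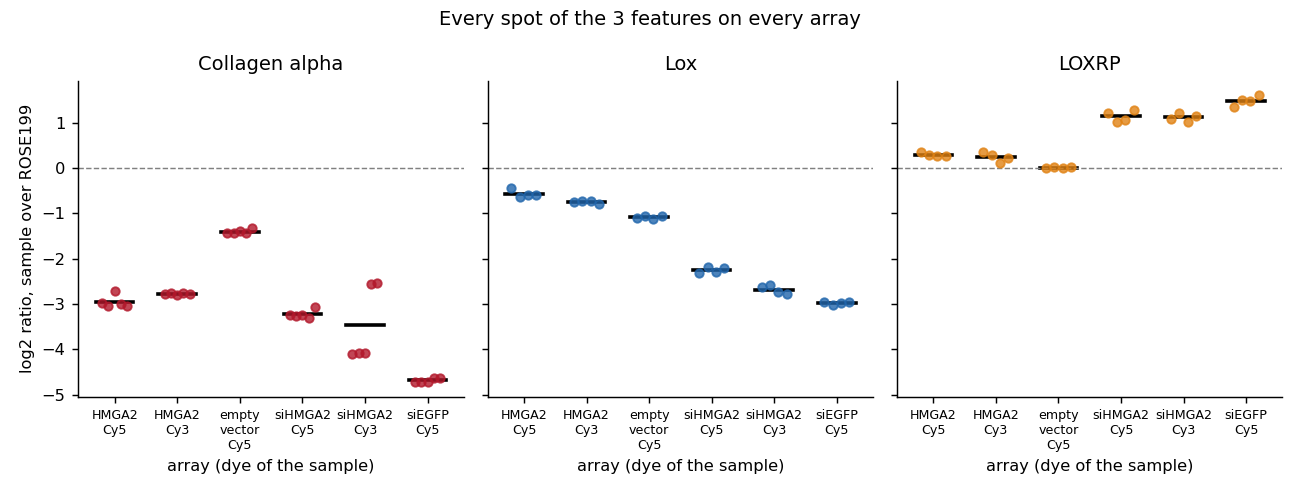
Log2 ratio of sample over ROSE199 for every spot of Collagen alpha (5 spots), Lox (4) and LOXRP (4) on each array, with the mean as a black line and the dye of the sample under each array. Collagen alpha and Lox lie below 0 on all 6 arrays and LOXRP above 0 in the siRNA groups; the spots of Collagen alpha on siHMGA2 replicate 2 form 2 sets near -4.08 and -2.54.

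The fit gave each group 1 level and each feature 1 dye term, and a feature passed where its log2 difference reached 1 in either direction, exceeded 2 pooled standard errors (SE) and kept its sign when the Cy5 arrays were taken alone. Each count of the 3 features is read against the share of all 311 features that passed. These shares, higher and lower, were 4.5% and 3.22% for HMGA2 minus empty vector, 8.68% and 2.25% for siHMGA2 minus siEGFP, 4.5% and 2.25% for HMGA2 minus ROSE199, 1.29% and 1.61% for empty vector minus ROSE199, 8.68% and 10.3% for siHMGA2 minus ROSE199, and 11.3% and 15.4% for siEGFP minus ROSE199. In bulk RNA, fewer cells of a type and less RNA per cell cannot be told apart.

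With HMGA2 expressed in ROSE199, Collagen alpha fell and neither lysyl oxidase feature passed. Collagen alpha was 2.72-fold lower in HMGA2 than in empty vector cells (log2 difference -1.44, SE 0.22), the fourth lowest of 311 differences. Lox was 1.50-fold higher (0.58, SE 0.22), short of the size threshold, and LOXRP differed by 0.28 (SE 0.22). So 1 of the 3 features passed lower and 0 passed higher. HMGA2 and empty vector arrays were quantified on different days, so day of quantification and group cannot be told apart. With the arrays scaled to the same spread, the Collagen alpha difference was -0.76 and no longer passed, and Lox passed at 1.27; Lox also passed at 1.01 with centring on beta actin.

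With HMGA2 siRNA in ROSEA25, the difference in Collagen alpha had the opposite sign. It was 2.56-fold higher in siHMGA2 than in siEGFP cells (1.36, SE 0.22), the sixteenth highest of 311. Lox was 1.58-fold higher (0.66, SE 0.22) and LOXRP 1.26-fold lower (-0.33, SE 0.22), and neither passed. So 1 of 3 passed higher and 0 lower, where 8.68% of all features passed higher. The Collagen alpha difference depended on the processing: it was 0.94 in the authors' deposited table and -0.38 with arrays scaled to the same spread, and neither passed. It shares its 1 siEGFP array, with the opposite sign, with siEGFP minus ROSE199, so these results are not independent.

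The spots show where siHMGA2 replicate 2 is uncertain. Of its 5 Collagen alpha spots, 3 were bright, with ratios of -4.11 to -4.07 at a ROSE199 net signal of 12477 to 13295 units. The other 2 spots read -2.55 and -2.53 at a ROSE199 signal of 2003 to 2174 units. The mean of -3.47 therefore lies between 2 sets of spots that hold no value near it, and the bright set sits nearer to siEGFP (-4.68) than to siHMGA2 replicate 1 (-3.22).

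Spots more than 1 log2 unit dimmer than their feature's median made up 89 of 1342 spots on that array. Their ratios moved by a median of 0.26 from the feature's own median, and by 1.5 or more in 6 of the 89. In the same block of the slide, 4 of the 29 spots in rows 8 to 11 and 8 of the 57 in rows 1 to 7 were dim. HMGA2 replicate 1 held 1 dim Collagen alpha spot and 1 dim Lox spot, at -2.70 and -0.44, above the other spots of the same feature in both cases. Without dim spots, Collagen alpha was 1.19 higher in siHMGA2 than in siEGFP and still passed; without siHMGA2 replicate 1 it was 1.04, and with both left out it was 0.36 (SE 0.34) and did not pass. Without siHMGA2 replicate 2 it was 1.46.

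**Figure D3:**
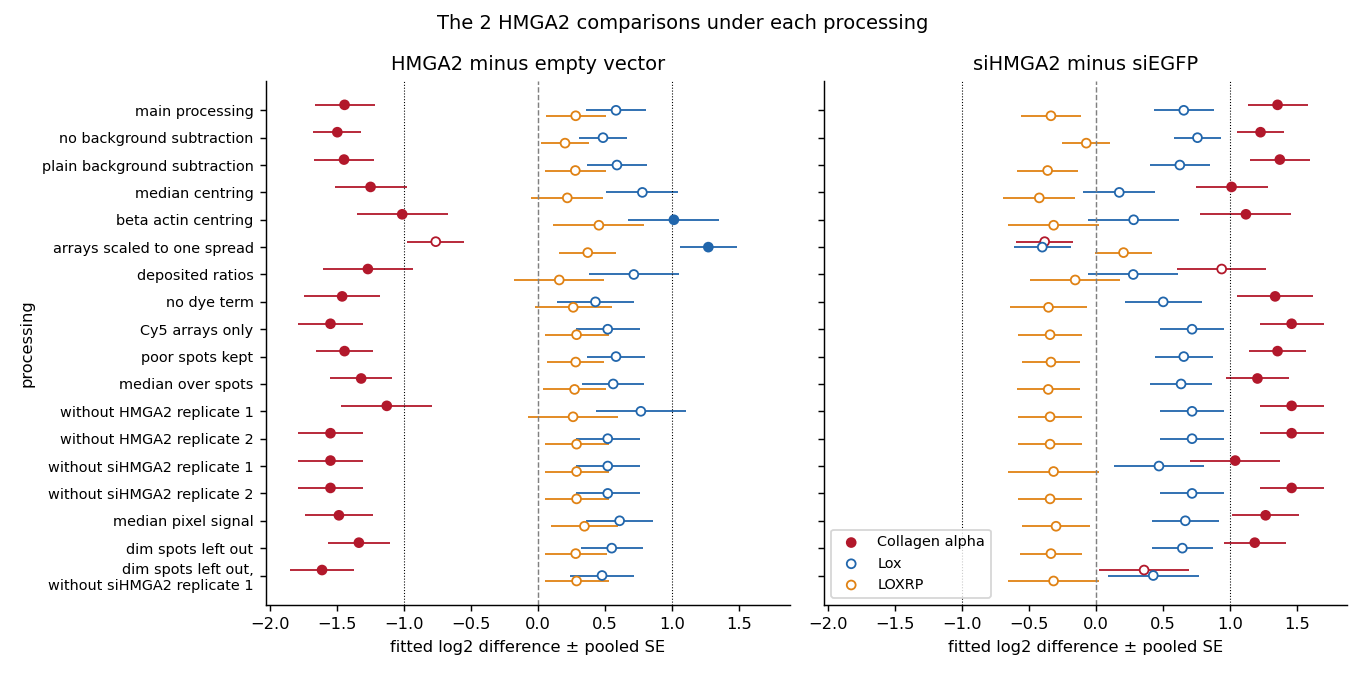
Fitted log2 difference, with its pooled SE, of Collagen alpha, Lox and LOXRP for HMGA2 minus empty vector (left) and siHMGA2 minus siEGFP (right) under the main processing and 17 alternatives; filled circles passed and dotted lines mark 1 log2 unit. Collagen alpha passed in 16 alternatives on the left and 14 on the right, where scaling the arrays puts it at -0.38. Some alternatives give the same value by design.

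Against ROSE199, Collagen alpha passed lower in all 4 groups. It was 7.29-fold lower in HMGA2 (-2.87, SE 0.12), 2.68-fold lower in empty vector (-1.42, SE 0.19), 10.2-fold lower in siHMGA2 (-3.34, SE 0.12) and 26.0-fold lower in siEGFP cells (-4.70, SE 0.19). The vector alone, with selection, thus came with a lower Collagen alpha level, in a comparison where 1.61% of features passed lower. The siRNA groups differ from ROSE199 both in being ROSEA25 and in siRNA transfection, which cannot be told apart here.

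Some markers of the cells moved in the same groups. Against ROSE199, the 5 ovarian surface epithelium markers ranged over -0.90 to 0.79 in HMGA2, -0.36 to -0.05 in empty vector, -2.20 to -0.01 in siHMGA2 and -3.73 to -0.74 in siEGFP cells. P-cadherin was lowest of them in siEGFP (-3.73), followed by E-cadherin (-2.55), Megakaryocyte potenciating factor (-1.98) and WT1 (-1.41). The mesenchymal marker SM22 was at -1.51 in HMGA2, -0.84 in empty vector, -2.80 in siHMGA2 and -4.55 in siEGFP cells. Fitted values of the other mesenchymal markers lay closer to ROSE199. In the same order, PDGF receptor was at -0.10, 0.14, -0.02 and 0.32, and Thy-1 at -0.02, 0.50, 0.31 and -0.16. Neither was above blank in siEGFP cells, so their levels there are only bounds. The ovarian surface epithelium markers and SM22 were thus lowest in siEGFP, as Collagen alpha and Lox were. The exception was Megakaryocyte potenciating factor, which was lowest in siHMGA2 (-2.20). Their part in the collagen and Lox differences was not tested.

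Lox passed lower against ROSE199 in 3 of 4 groups. It was 5.54-fold lower in siHMGA2 (-2.47), 8.74-fold lower in siEGFP (-3.13) and 2.36-fold lower in empty vector cells (-1.24), and its -0.66 in HMGA2 cells did not pass. LOXRP passed higher in both ROSEA25 groups, 2.19-fold in siHMGA2 (1.13, SE 0.12) and 2.76-fold in siEGFP (1.46, SE 0.19). In HMGA2 and empty vector cells LOXRP stood at 0.27 and -0.01. The LOXRP calls were near the threshold: without background subtraction the differences were 0.89 in siHMGA2 and 0.96 in siEGFP, and neither passed.

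**Figure D4:**
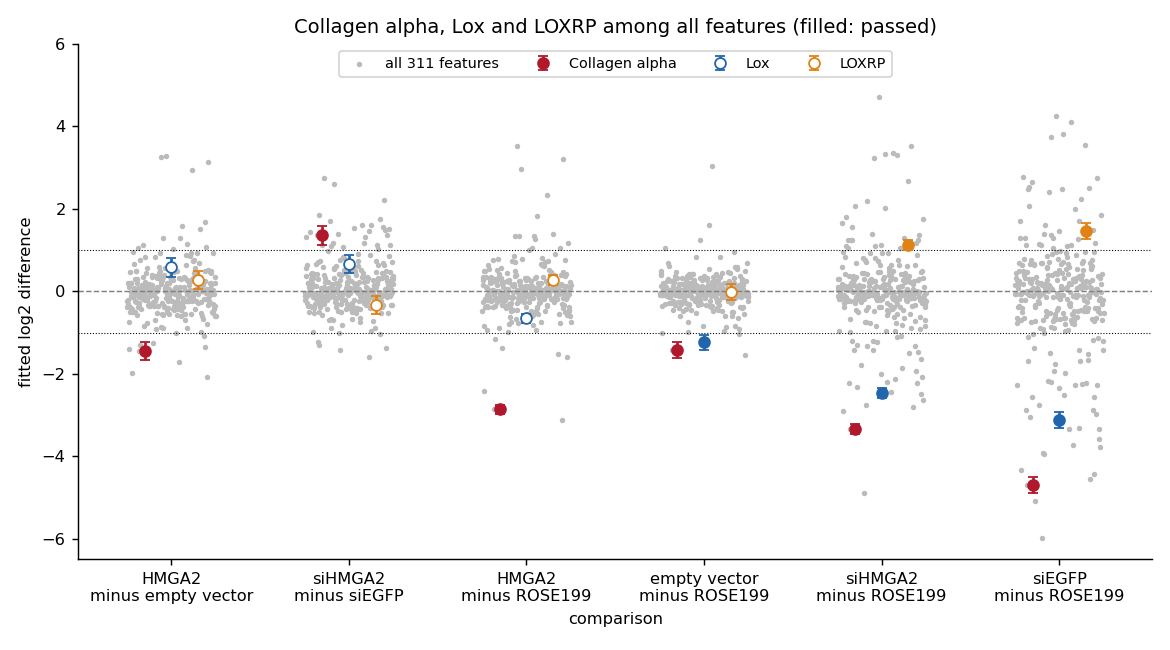
Fitted log2 differences in the 6 comparisons, with all 311 features as grey dots and Collagen alpha, Lox and LOXRP as coloured circles with the pooled SE; filled circles passed and dotted lines mark 1 log2 unit. Collagen alpha lies below -1 in all 4 comparisons with ROSE199 and above 1 in siHMGA2 minus siEGFP.

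The order of fitted levels differed between the features. Collagen alpha was lowest in siEGFP, followed by siHMGA2, HMGA2 and empty vector, with ROSE199 highest. The step between HMGA2 and siHMGA2 was the smallest, 0.48 (SE 0.17), and the other 2 steps between groups were 6.46 and 6.07 SE. Lox was lowest in siEGFP, followed by siHMGA2, empty vector and HMGA2. Its step of 1.23 between empty vector and siHMGA2 was 5.50 SE, and the outer steps were 2.60 and 2.94 SE. LOXRP fell into a low pair, empty vector and HMGA2, and a high pair, siHMGA2 and siEGFP, whose members were 1.25 and 1.49 SE apart; the pairs were 0.86 (5.10 SE) apart. Scaling the arrays to the same spread turned part of these orders. Collagen alpha was then lowest in HMGA2 (-3.11), followed by siHMGA2 (-2.95), siEGFP (-2.57) and empty vector (-2.34), and Lox was lowest in siHMGA2 (-2.17), followed by empty vector (-1.98), siEGFP (-1.77) and HMGA2 (-0.71).

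The dye swaps bear on these errors. Replicate 1 minus replicate 2 was -0.17 for Collagen alpha, 0.18 for Lox and 0.05 for LOXRP in HMGA2, beside a median size of 0.17 over all features. In siHMGA2 the gaps were 0.25, 0.43 and 0.02, beside 0.27. The pooled SD of 0.169 was the same for all features and is smaller than the 0.85 spread of the Collagen alpha spots on siHMGA2 replicate 2. Lox had the largest dye term of the 3, 0.31, beside a median size of 0.22.

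Over the 6 arrays, which share ROSE199 RNA, the ratio of Collagen alpha had a Pearson r of 0.71 with Lox and -0.88 with LOXRP, and Lox and LOXRP had -0.94. By root mean square difference of the 6 log2 ratios, among 306 features, those most like Lox were NAP-22 (0.35, r = 0.94), Follistatin related protein (0.51, r = 0.99) and LOT1 (0.52, r = 0.98). LOXRP was most like Sprouty2, an antagonist of receptor tyrosine kinase signalling (0.11, r = 0.99), ID2, an inhibitor of helix-loop-helix transcription factors (0.17, r = 0.97), and Cathepsin D, a lysosomal protease (0.19, r = 0.94). Collagen alpha had no close match: the nearest were T16 (1.01, r = 0.75), SM22 (1.05, r = 0.91) and Thrombospondin 1 (1.12, r = 0.81). These likenesses describe 4 groups and are not evidence of shared control.

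Most other structural matrix features stayed closer to ROSE199 than Collagen alpha did; the exception was Thrombospondin 1 in empty vector cells. Of 5 (Fibrillin-1, Fibronectin, Osteonectin, Tenascin C and Thrombospondin 1), only Thrombospondin 1, a secreted glycoprotein that binds matrix and cells, passed in any comparison under the main processing, although 3 of the 5 passed lower in siEGFP against ROSE199 with beta actin centring and 3 in the authors' deposited table. It was at -1.60 in HMGA2, -1.55 in empty vector, -2.63 in siHMGA2 and -3.77 in siEGFP against ROSE199. Median differences of the 5 were -0.57, -0.40, -0.75 and -0.77 in the same order, beside -0.01, -0.01, -0.03 and -0.02 over all features. The shares of all features that passed lower were 2.25%, 1.61%, 10.3% and 15.4% in that order. In HMGA2 minus empty vector none of the 5 passed and the median was -0.05; without HMGA2 replicate 1 Fibronectin passed at -1.01 and the median was 0.23. In siHMGA2 minus siEGFP Thrombospondin 1 passed at 1.13, but did not pass in 7 of 17 alternatives. These included leaving out siHMGA2 replicate 1 (0.81), median and beta actin centring (0.46 and 0.57), the authors' deposited table (0.57) and scaling (0.01). In the authors' deposited table Fibronectin (1.79) and Tenascin C (2.05) passed higher in that comparison. Osteonectin, at -0.97 in siHMGA2 against ROSE199, passed lower under 5 of 17 alternatives.

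Matrix proteases and their inhibitors numbered 8. In siEGFP against ROSE199, 3 passed higher and 0 lower: MMP10 (3.82), MMP-3 (2.49), both stromelysins that cleave matrix proteins, and Cathepsin D (1.29, or 0.67 and not passing with arrays scaled). The same 3 passed in siHMGA2 against ROSE199, at 3.32, 2.01 and 1.26, although Cathepsin D was at 0.87 without siHMGA2 replicate 2 and at -0.22 in the authors' deposited table. Of all features, 11.3% passed higher in siEGFP and 8.68% in siHMGA2 against ROSE199. GelatinaseA, MMP1, PAI1, TIMP-2 and UPA did not pass, nor did any of the 8 in HMGA2 minus empty vector or siHMGA2 minus siEGFP, where the medians were -0.16 and -0.24. In siHMGA2 minus siEGFP 3 of the 8 passed under 1 alternative each: MMP10 at -1.10 with median centring, GelatinaseA at 1.08 with beta actin centring, and Cathepsin D at -2.04 in the authors' deposited table. In HMGA2 minus empty vector TIMP-2 passed at 1.01 with beta actin centring. MMP10 and MMP-3 were thus higher in both ROSEA25 groups, where Collagen alpha and Lox were lower.

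The list named inducers and receptors of matrix synthesis held 8 features. It took in TSC36 and Follistatin related protein, whose role as either was not checked. Of the 8, 5 passed lower in siEGFP against ROSE199, where 15.4% of all features passed lower. The lowest of the 5 were FISP-12, the rodent connective tissue growth factor (-5.97), Follistatin related protein (-3.92) and TSC36, a TGF beta-stimulated follistatin-like clone (-3.57). The others were Cyr61, a matricellular relative of FISP-12 (-3.04), and TGFBT2R, which by its name is the type II TGF beta receptor (-2.27). By their names, Follistatin related protein and TSC36 may report 1 gene. This was not checked, and they were counted as separate features. TGF beta itself was at 0.05, and PDGF and PDGF receptor also did not pass. The median of the 8 was -2.66 in siEGFP and -1.06 in siHMGA2, where 4 passed lower, beside -0.02 and -0.03 over all features. In siHMGA2 against ROSE199, 10.3% of all features passed lower. The siHMGA2 median was -0.46 with 3 lower without siHMGA2 replicate 2 and -1.65 with 5 lower without replicate 1. None of the 8 passed against ROSE199 in HMGA2 or empty vector cells, where the medians were -0.20 and -0.26. Without HMGA2 replicate 2, FISP-12 (-1.15) and Cyr61 (-1.07) passed lower in HMGA2 and the median was -0.53. In empty vector cells Follistatin related protein, at -0.98, passed lower under 7 of 17 alternatives, at -1.24 with 1 HMGA2 array (replicate 1 or 2) left out, where the median was -0.55. PDGF receptor, like GelatinaseA and Fibrillin-1, was not above blank in siEGFP cells, so its level there is only a bound.

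The same 5 passed higher in siHMGA2 minus siEGFP, by 1.09 to 1.84, with a median of 1.13 over the 8 beside 0.03 over all features. In this comparison 8.68% of all features passed higher. It shares its 1 siEGFP array, with the opposite sign, with siEGFP minus ROSE199. An error on that array would lower a feature in 1 comparison and raise it in the other, so the 2 results are not independent. The 5 calls in siHMGA2 minus siEGFP also depended on the processing. With median centring, with beta actin centring or without the dye term, 3 of the 8 passed higher. Only 1 of the 8 did so in the authors' deposited table. FISP-12 did not pass in 9 of 17 alternatives and Follistatin related protein in 7. Cyr61, TSC36 and TGFBT2R did not pass in 4 each. Without siHMGA2 replicate 1 none of the 8 passed and the median was 0.49; with arrays scaled to the same spread none passed and it was 0.20, with FISP-12 (-0.91) and Follistatin related protein (-0.11) turned in sign. In HMGA2 minus empty vector none passed and the median was -0.14, while Collagen alpha was at -1.44. Without HMGA2 replicate 1 the median was 0.32 and Cyr61 (1.04), Follistatin related protein (1.64) and TSC36 (1.02) passed higher; with beta actin centring it was 0.16 and 2 passed higher. Follistatin related protein was at 0.84 and Lox at 0.58 under the main processing.

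**Figure D5:**
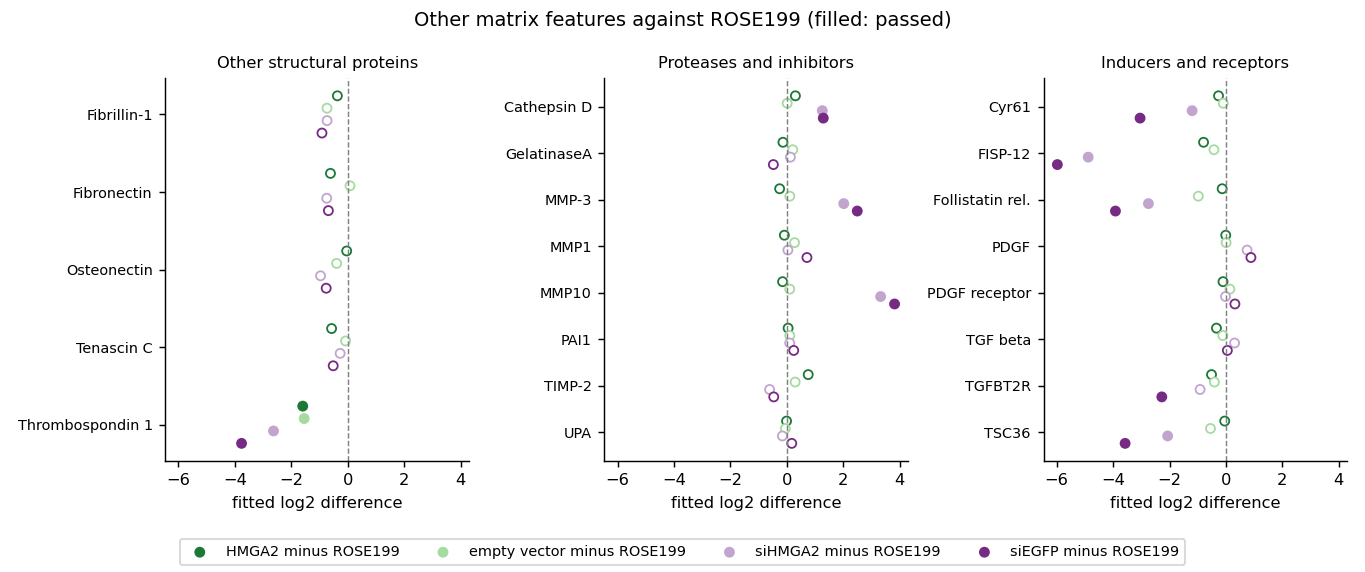
Fitted log2 differences against ROSE199 of 5 other structural matrix features, 8 proteases and inhibitors and 8 features listed as inducers and receptors. The groups are HMGA2, empty vector, siHMGA2 and siEGFP cells (top to bottom within each feature), and filled circles passed. MMP10 and MMP-3 lie above 0 and FISP-12, TSC36 and Thrombospondin 1 below 0 in both siRNA groups.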

How the data were processed

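Per the file headers, the deposited quantification files give, for both dyes, every spot's intensity as a mean signal with a median local background. The table the authors deposited beside them holds values taken as log2 ratios, with sample over ROSE199 as the direction, since they correlated at 0.841 to 0.948 with the spot ratios; their centring and background correction are not given in the sources used here. They served as an alternative.

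Of 1760 spots per array, 37 blank, 325 beta actin and those marked poor (21 to 64 per array) were left out of the averages, leaving 311 features. Background was subtracted by normexp (offset 50) and ratios were loess-centred (span 0.3, 4 iterations) in limma 3.58.1 under R 4.3.3. A least-squares fit gave each feature 1 level per group and 1 dye term, leaving 1 residual; the spread was pooled over features (SD 0.169, root mean square 0.229). The fit was tested on simulated data. With 1 RNA sample assumed per group there is no p-value, and the number of arrays limits the precision.

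The features, gene lists and alternatives were chosen with earlier results of these data known. The text names the 3 features, the 3 features most like each, the listed matrix genes and marker genes, and HMGI-C and K-ras as checks of the labels. No sequence of the 3 features is shown, and no coordinates, since the files name no genome build. Alternatives covered background, centring, scaling, the dye term, poor and dim spots, and each array left out; 3 of the 17 were chosen after seeing the data.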

Additional observations from a re-analysis of the deposited data

How the results depend on the processing

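Of 17 alternatives, Collagen alpha kept its direction and passed in all 17 in each comparison with ROSE199 (-4.86 to -2.57 in siEGFP, -4.20 to -2.90 in siHMGA2, -3.11 to -2.49 in HMGA2 and -2.34 to -1.29 in empty vector), as did Lox in siHMGA2, siEGFP and empty vector. Scaling multiplied ratios by 0.599 (siEGFP) to 1.84 (empty vector). It moved Collagen alpha to -0.76 in HMGA2 minus empty vector and, with its sign turned, -0.38 in siHMGA2 minus siEGFP; Lox to 1.27 and -0.40 there; LOXRP to 0.21 in siHMGA2 minus siEGFP and 0.80 in siEGFP minus ROSE199. Beta actin centring put Lox at 1.01 in HMGA2 minus empty vector and LOXRP at 0.96 in siHMGA2 minus ROSE199. Without background subtraction LOXRP was at 0.96 in siEGFP and 0.89 in siHMGA2 against ROSE199. The authors' deposited table gave 0.94 for Collagen alpha in siHMGA2 minus siEGFP and 0.97 for LOXRP in siHMGA2 minus ROSE199; dim spots and siHMGA2 replicate 1 left out together gave 0.36 for Collagen alpha in siHMGA2 minus siEGFP. The cause of these shifts was not tested.

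Features that passed in HMGA2 minus empty vector numbered 24, against 15 without background subtraction, 39 with beta actin centring, 39 with scaling and 27 to 40 with 1 array left out. In empty vector minus ROSE199 they numbered 9, against 23 with scaling and 9 to 15 with 1 array left out; in siEGFP minus ROSE199, 83 against 54 with scaling. In siHMGA2 minus siEGFP they numbered 34, against 22 without background subtraction, 9 with scaling, 65 in the authors' deposited table, 14 with dim spots and siHMGA2 replicate 1 left out and 16 to 42 with 1 array left out. Passing features split into 14 higher and 10 lower in HMGA2 minus empty vector, against 32 and 7 with beta actin centring and 18 and 7 in the authors' deposited table; into 27 and 7 in siHMGA2 minus siEGFP, against 25 and 16 with median centring and 38 and 27 in the authors' deposited table; into 4 and 5 in empty vector minus ROSE199, against 3 and 8 with either centring and 13 and 10 with scaling; and into 14 and 7 in HMGA2 minus ROSE199, against 9 and 7 in the authors' deposited table and 13 and 15 without HMGA2 replicate 2. The empty vector split was 4 and 11 with 1 HMGA2 array (either of them) left out and 6 and 3 with 1 siHMGA2 array left out; the HMGA2 minus empty vector split was 27 and 13 without HMGA2 replicate 1 and 13 and 14 without any other of the 4 paired arrays. Beta actin centring moved the median of all features by over 0.1, to 0.20 in HMGA2 minus empty vector. It also moved it to 0.16 in HMGA2 minus ROSE199 and -0.28 in siEGFP minus ROSE199. Shifts over 0.1 in the authors' deposited table were to -0.11 in HMGA2 minus empty vector and -0.13 in siHMGA2 minus siEGFP. Against ROSE199 they were to 0.12 in siEGFP and 0.08 in siHMGA2. With 1 array left out or Cy5 arrays alone no residual remained and the main pooled SD was used. No paired analysis was possible because empty vector and siEGFP have 1 array each; between HMGA2 and siHMGA2 the replicate number marks the dye, which the fit already holds as a term.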
